A study of Rattus norvegicus with 49 samples.

Results

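The genes described here are the Rab GTPases and their regulators, taken as every gene whose symbol in the array's annotation begins with Rab and a digit or with Tbc1d. Of the 10411 genes on the array, 65 met that rule, through 81 probe sets. Each gene was read by its probe set of highest mean log2 signal, and genes with a signal of 100 or more on 5 or more of the 49 arrays entered the tests. This left 61 members among 8093 tested genes. The members not tested were Rab25, Rab27a, Rab39a and Tbc1d2. The nearest member inside that limit was Rab3il1, at or above 100 on 16 arrays, and the nearest outside was Rab25, on 3 arrays. The rule takes symbols and not function: it also admits Rab-binding proteins (the Rab11fip genes, Rab3gap2, Rab3il1, Rab3ip) and Rab5if, which is no GTPase.

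RNA came from CA1, the pyramidal cell field of the hippocampus dissected here from the left side, of Fisher 344 rats, with 1 Affymetrix RAE 230A array per animal. The groups were 9 rats each of 3, 6, 9 and 12 months and 13 rats of 23 months, by the sample labels (the design text gives 25 months for the oldest group in one place). Every group had been through water maze training before the tissue was taken, and 2 aged animals in poor health had been removed. No drug or transgene is named, and sex is not given in the labels. Each array is a different rat, so the error terms below are of rat-to-rat spread, and the number of arrays limits the precision.

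Rab proteins are small GTPases that mark the membranes of the cell: each sits on its own compartment in the GTP-bound form and recruits tethers, motors and coats that move vesicles to the next one. Exchange factors switch a Rab on, and proteins with a TBC domain, among them the Tbc1d family, speed the hydrolysis of GTP and switch it off. In neurons, Rab3 proteins sit on synaptic vesicles, Rab5 and Rab11 proteins route receptors through early and recycling endosomes in dendrites, and Rab7 carries endosomes and autophagosomes towards lysosomes.

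The 4 CA1 pyramidal cell markers on the array had a median signal of at least 100 at every age, with sums per array of 10107 to 14553, and 3 dentate granule cell markers summed to 1770.4 to 3025.0. Markers of other cell types moved with age. Of 13 tested microglial markers 11 were higher at 23 than at 3 months, with a median sum of 8737.4 at 3 months and 12890 at 23 months, as were 3 of 9 astrocyte markers. Among neuronal markers 1 of 11 was lower (median sums 42199 and 41788), and 1 of 4 CA1 markers was lower (12782 and 11706), with all 4 negative. Of 8 oligodendrocyte markers 1 was lower. Of 5 endothelial markers 0 were called, though all 5 differences were positive, 4 of them at an unadjusted p under 0.05. The 2 blood markers on the array summed to as much as 4517.8 at 23 months, against a median of 76.8. At the younger ages their sums were at most 277.6. In an earlier account of these data 5 arrays stood apart in choroid plexus signal: 3 months replicates 4, 6, 7 and 8 and 23 months replicate 11. The 10 choroid plexus markers on the array summed to as much as 17363 at 3 months and 28172 at 23 months, against medians of 2292.5 and 2290.3. Values without those arrays, which leave 5 animals at 3 months, are given beside most of the members' calls. In tissue RNA, fewer cells of a type and less RNA per cell cannot be told apart, and the part of these shifts in the results below was not tested.

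The members called in the directional comparisons (23 against 3 months, 23 against 12 months and the line in age) were lower in older rats. A gene was called where the p-value of limma, adjusted by the Benjamini-Hochberg method over all 8093 genes, was under 0.05. Between 3 and 23 months 2 members fell, Tbc1d14 and Rab11a, and 0 rose, against 0.853% of all tested genes lower and 2.41% higher. Along a straight line in age 6 members fell, Tbc1d14, Rab3a, Rab2a, Rab11a, Tbc1d13 and Rab26, and 0 rose, where 1.64% of all genes fell and 3.47% rose. The F-test over all 5 ages called 1 member, Tbc1d14, at a background of 1.88%. Between 12 and 23 months 1 member fell, Tbc1d13, at a background of 0.0247% of genes lower. No member was called at 12, 9 or 6 against 3 months by limma, where the backgrounds were 0.222%, 0.0371% and 0.0124%. At an unadjusted p under 0.05 there were 8, 3 and 3 members in these comparisons, where 7.92%, 3.09% and 2.85% of all genes passed.

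Most of the family differed little between the youngest and oldest rats. Of the 61 tested members 25 had a positive and 36 a negative log2 difference at 23 against 3 months, with a median of -0.02 where that of all tested genes was 0.00. The median size of the difference was 0.070 on the log2 scale, the same as over all genes (0.070). At an unadjusted p under 0.05 in limma there were 3 members higher and 9 lower. Of all 8093 tested genes 663 were higher and 504 lower at that looser threshold, 14.4% in either direction. Among animals of one age their median pooled SD was 0.154 on the log2 scale, and that of all tested genes 0.181. Rab10 had the smallest SD of the members (0.0699) and Rab23, a Rab of the primary cilium, the largest (0.417). The mean signal was 2369 for Rab10 and 99.4 for Rab23, which reached 100 on 25 arrays only. The part of signal level in these SDs was not tested.

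**Figure D1:**
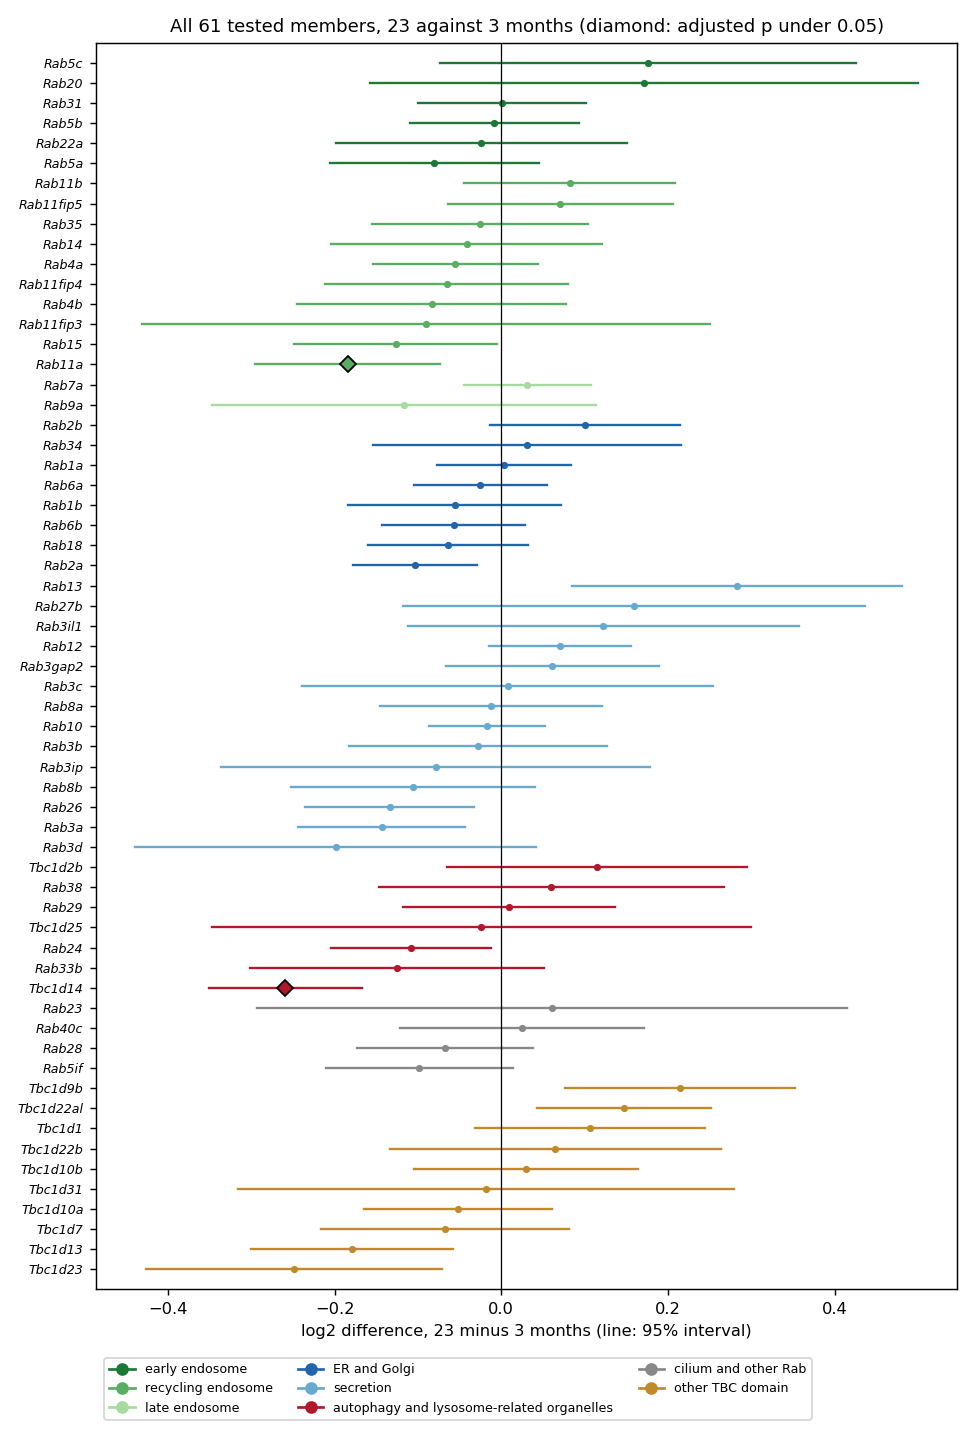
Log2 difference between 23 and 3 months (horizontal axis) for the 61 tested members, one row each, coloured by role and ordered by value within a role. Points are limma estimates over all 49 arrays, lines are 95% intervals, and diamonds mark the 2 members called, Rab11a and Tbc1d14.

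Among endosomal members, 18 of which were tested, 1 fell and 0 rose at 23 against 3 months (background 0.853% and 2.41%), with a median log2 difference of -0.03. Of 22 secretory members 0 were called in either direction, with a median of -0.02, although 3 of them (Rab3a, Rab2a and Rab26) were among the 6 that fell along the line in age. Of 7 tested members of autophagy and lysosome-related organelles 1 fell, with a median of -0.02. The other 14 members had a median of 0.00 and 0 calls. These medians were not tested against each other.

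Tbc1d14, a TBC-domain protein that binds Rab11 and restrains the formation of autophagosomes from recycling endosome membrane, had the smallest p of the family. Its signal was lowest at 717.0, in the median 788.3 and highest at 934.5 at 3 months. At 6 months these values were 719.7, 757.0 and 826.7, and at 9 months 654.0, 706.8 and 823.5. At 12 months they were 603.7, 692.8 and 742.6. At 23 months they were 565.3, 657.8 and 749.4, so that 12 of the 13 oldest rats lay below every 3-month rat while 1 lay within their range. Means (± SD) went from 793 ± 64.3 (n = 9) to 662 ± 44.3 (n = 13). The log2 difference was -0.26 ± 0.046 (SE; limma, adjusted p = 8.97e-05), and 13 of 13 old rats were below the 3-month mean.

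The means of Tbc1d14 at the middle ages lay between those of the youngest and oldest rats. At 12 against 3 months the log2 difference was -0.19 ± 0.050 (SE; limma, adjusted p = 0.077), with 9 of 9 rats below the 3-month mean. Leaving out each of the 18 arrays gave adjusted p-values of 0.047 to 0.185 in limma. Only the omission of 3 months replicate 5 passed. Without the 5 choroid plexus arrays the difference was -0.14 (SE 0.058, limma, adjusted p = 0.52). Along the line in age it fell by 0.12 per 10 months on the log2 scale (SE 0.021, limma, adjusted p = 2.24e-05), and the F-test gave an adjusted p of 4.08e-04. A line through the 4 ages from 3 to 12 months alone gave -0.23 per 10 months (SE 0.052, limma, adjusted p = 0.027). These slopes were not tested against each other. From 12 to 23 months the difference was -0.06 ± 0.046 (SE; limma, adjusted p = 0.77). Without the 5 choroid plexus arrays the slope was -0.11 (SE 0.022, limma, adjusted p = 9.43e-04), and the F-test gave an adjusted p of 0.015. The call at 23 against 3 months also held without them. The highest 3-month signal, 934.5, was on replicate 4, which is among those arrays. The line from 3 to 12 months was not fitted without them.

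Other autophagy and lysosome-related members were not called. Rab24, a divergent Rab found on autophagosomes, had a mean of 854 ± 72.8 at 3 months and 792 ± 55.3 at 23 months (log2 difference -0.11, limma, adjusted p = 0.25). Its slope reached an adjusted p of 0.041 in limma only without 3 months replicate 9 and was 0.087 with all arrays. Rab33b, a Golgi Rab that binds the autophagy protein Atg16L1, had a mean of 442 ± 43.6 at 3 months and 412 ± 81.3 at 23 months (log2 difference -0.12, limma, adjusted p = 0.56). The remaining 4 tested members of this role (Rab29, Rab38, Tbc1d25, Tbc1d2b) had log2 differences of -0.02 to 0.11.

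Rab11a, which drives the slow recycling of receptors from the perinuclear recycling endosome to the surface, fell between 3 and 23 months. At 3 months its signal was lowest at 1428.4, in the median 1570.2 and highest at 1756.6. At 23 months it was lowest at 1104.5, in the median 1411.5 and highest at 1682.6. The groups overlapped: 8 of 13 old rats lay below every 3-month rat, and 12 of 13 below the 3-month mean. Means at 3, 6, 9, 12 and 23 months were 1586, 1498, 1487, 1463 and 1400. The log2 difference was -0.18 ± 0.055 (SE; limma, adjusted p = 0.049), and the slope was -0.08 per 10 months (limma, adjusted p = 0.040).

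This call lay at the threshold. It was lost on leaving out any 1 of 17 of the 22 arrays, with adjusted p-values of 0.017 to 0.106 in limma over the 22 omissions (it held without 3 months replicate 1 or 23 months replicates 8, 11, 13 or 15), and without the 5 choroid plexus arrays the difference was -0.15 with an adjusted p of 0.35. The slope was lost (adjusted p up to 0.109) without 3 months replicates 4, 5, 7 or 8, 6 months replicate 9 or 23 months replicates 1, 6, 7, 9 or 14, each left out alone, and its adjusted p was 0.14 without the 5 arrays. A dimmer probe set of Rab11a gave -0.10 ± 0.10 (SE).

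Of the 10 tested members of recycling endosomes 2 had a positive and 8 a negative difference, and Rab11a was the only one called. Rab15, which slows recycling, went from a mean of 1094 ± 121 to 1000 ± 82.9 (log2 difference -0.13, limma, adjusted p = 0.31). A dimmer probe set of Rab15 gave 0.09 ± 0.089 (SE). Rab4a and Rab4b, the Rabs of the fast recycling route, had differences of -0.06 and -0.08, with adjusted p-values of 0.67 and 0.71 in limma. Rab11b, the brain-enriched relative of Rab11a, had a difference of 0.08 ± 0.063 (SE; limma, adjusted p = 0.60). None of the 3 Rab11 family interacting proteins (Rab11fip3, Rab11fip4, Rab11fip5), effectors that link Rab11 to motors, was called, with differences of -0.09 to 0.07.

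None of the 6 early endosome or 2 late endosome members was called at 23 against 3 months. Rab5a, the master Rab of early endosome fusion, had a mean of 1082 ± 115 at 3 months and 1024 ± 113 at 23 months (log2 difference -0.08, 95% interval -0.21 to 0.04, limma, adjusted p = 0.61). Rab5b had a difference of -0.01 and Rab5c, another isoform, of 0.18, with a 95% interval of -0.07 to 0.43 (limma, adjusted p = 0.56). Rab22a and Rab31, relatives of Rab5 on early endosomes and the trans-Golgi, had differences of -0.02 and 0.00, and Rab20 of 0.17. Rab7a, which carries late endosomes and autophagosomes to lysosomes, had a mean of 3107 ± 133 at 3 months and 3174 ± 111 at 23 months. Its 95% interval of -0.04 to 0.11 on the log2 scale was among the narrowest of the family. Rab9a, which returns receptors from late endosomes to the Golgi, had a difference of -0.12 with a wider interval of -0.35 to 0.11.

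Rab3a, the principal Rab of synaptic vesicles and a regulator of transmitter release, had like means up to 12 months and its lowest mean at 23 months. At 3 months its signal was lowest at 2620.6, in the median 2910.9 and highest at 3339.0. At 12 months it was lowest at 2741.0, in the median 2971.5 and highest at 3330.8. At 23 months it was lowest at 2244.7, in the median 2728.8 and highest at 3162.7. The groups overlapped, with 5 of 13 old rats below every 3-month rat and 7 of 13 below every 12-month rat. Means at 3, 6, 9 and 12 months were 2962, 3003, 2992 and 3011, and the mean at 23 months was 2688.

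Rab3a fell along the line in age by 0.08 per 10 months on the log2 scale (SE 0.022, limma, adjusted p = 0.014). That call was kept on leaving out each of the 49 arrays in turn (adjusted p at most 0.045) and without the 5 choroid plexus arrays (adjusted p = 0.049). It was lost with replicate numbers as a block (limma, adjusted p = 0.12), a pairing that the labels do not state. The separate contrasts were not called: the log2 difference was -0.14 ± 0.050 at 23 against 3 months (SE; limma, adjusted p = 0.11; 0.046 without 23 months replicate 9) and -0.17 ± 0.050 at 23 against 12 months (SE; limma, adjusted p = 0.21). At 12 against 3 months it was 0.02. The slope over 3 to 12 months was 0.02 per 10 months (limma, adjusted p = 0.97).

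Rab26, a Rab of synaptic and secretory vesicles that has been linked to their delivery to autophagosomes, also fell along the line in age. At 3 months its signal was lowest at 978.6, in the median 1039.7 and highest at 1324.7, and at 23 months 884.7, 1021.7 and 1096.0. The groups overlapped, with 5 of 13 old rats below every 3-month rat and 3 of 9 young rats above every old one. The slope was -0.07 per 10 months (SE 0.023, limma, adjusted p = 0.047). It was lost (adjusted p up to 0.101) on leaving out any 1 of 23 of the 49 arrays: 3 months replicates 1, 4 or 6, 6 months replicates 1 to 7, 9 months replicates 3, 4, 7 or 8, 12 months replicates 6, 8 or 9, or 23 months replicates 3, 6, 7, 11, 13 or 15. Without the 5 choroid plexus arrays the adjusted p was 0.18, with quantile normalization 0.077 and with array weights 0.104.

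Other secretory members were not called. Rab13, a Rab of tight junctions and polarized delivery, had the highest difference of the family at 23 against 3 months, 0.28 ± 0.099 (SE; limma, adjusted p = 0.11). Its signal was 183.0 at the lowest, 229.5 in the median and 316.4 at the highest at 3 months, and 186.9, 301.4 and 354.2 at 23 months, with 11 of 13 old rats above the 3-month mean. It passed without 3 months replicate 5 (adjusted p = 0.047) or 23 months replicate 7 (adjusted p = 0.028). Rab10, which delivers membrane in axon growth and glucose transporter traffic, differed by -0.02 with a 95% interval of -0.09 to 0.05. Rab8a and Rab8b, Rabs of exocytosis and cilia, differed by -0.01 and -0.11. The other Rab3 isoforms Rab3b, Rab3c and Rab3d differed by -0.03, 0.01 and -0.20, the last with a 95% interval of -0.44 to 0.04.

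Rab2a, which acts between the endoplasmic reticulum and the Golgi, fell along the line in age. At 3 months its signal was lowest at 3142.7, in the median 3367.4 and highest at 3904.7. At 23 months it was lowest at 2891.0, in the median 3217.8 and highest at 3518.0. The groups overlapped, though 12 of 13 old rats were below the 3-month mean. Means at 3, 6, 9 and 12 months were 3442, 3405, 3468 and 3429, and at 23 months 3205. The slope was -0.06 per 10 months (SE 0.016, limma, adjusted p = 0.033). The call was lost (adjusted p up to 0.087) without 3 months replicate 9 or 23 months replicates 3, 5, 10, 11 or 13, each alone, and without the 5 choroid plexus arrays (adjusted p = 0.069).

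No other member of the endoplasmic reticulum and Golgi was called. Rab1a, the Rab of transport from the endoplasmic reticulum to the Golgi, had a mean of 3876 ± 193 at 3 months and 3888 ± 274 at 23 months (log2 difference 0.00, 95% interval -0.08 to 0.08). Rab1b differed by -0.06. Rab6a and Rab6b, which govern retrograde traffic within the Golgi, differed by -0.03 and -0.06, with adjusted p-values of 0.85 and 0.58 in limma. Rab2b differed by 0.10 (limma, adjusted p = 0.43).

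**Figure D2:**
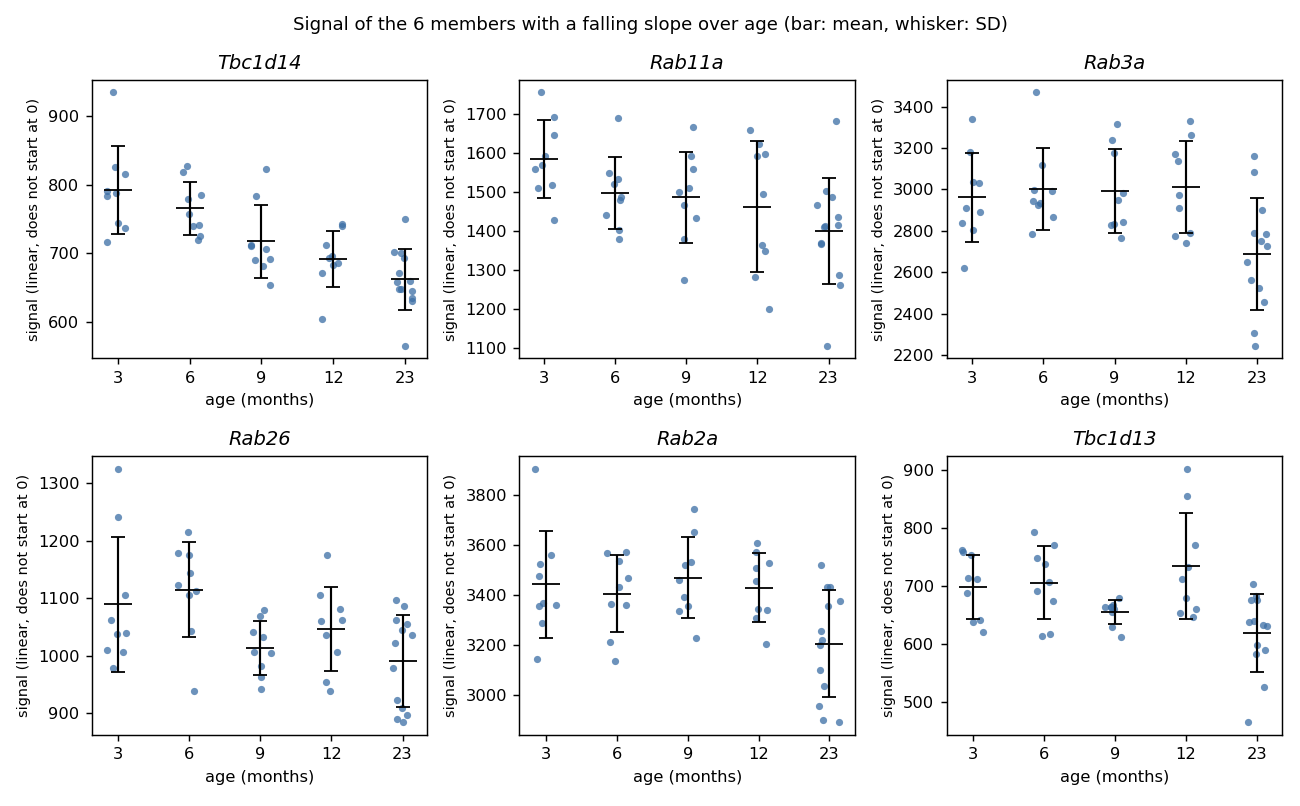
Signal (vertical axis, linear scale that does not start at 0) of each rat against age in months for the 6 members that fell along the line in age. Points are animals, the bar is the mean and the whisker the SD. Tbc1d14 steps down at each age from a mean of 793 to 662, Rab3a stays between 2962 and 3011 up to 12 months, and ages overlap in every panel.

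Tbc1d13, a GTPase-activating protein for Rab35, had its highest mean at 12 months. At 12 months its signal was lowest at 647.2, in the median 712.5 and highest at 902.4. At 23 months it was lowest at 465.9, in the median 633.6 and highest at 704.2, so that 9 of 13 old rats lay below every 12-month rat and 13 of 13 below the 12-month mean. At 3 months the values were 621.0, 712.3 and 763.1. The log2 difference was -0.25 ± 0.060 at 23 against 12 months (SE; limma, adjusted p = 0.045) and -0.18 ± 0.060 at 23 against 3 months (SE; limma, adjusted p = 0.091), and the slope was -0.09 per 10 months (limma, adjusted p = 0.040).

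Both calls of Tbc1d13 lay near the threshold. The fall from 12 months was lost (adjusted p up to 0.172) on leaving out any 1 of 15 of the 22 arrays, and it held without 12 months replicates 1, 6 or 7 or 23 months replicates 5, 6, 7 or 14. The slope was lost (adjusted p up to 0.108) without any 1 of 13 arrays, namely 3 months replicates 1, 3, 4 or 7, 6 months replicates 2, 3 or 5, or 23 months replicates 1, 3, 4, 8, 10 or 15. Without the 5 choroid plexus arrays the adjusted p-values were 0.078 and 0.079. With array weights that of the fall from 12 months was 0.060, and with quantile normalization that of the slope was 0.054.

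Of the 10 tested TBC-domain members outside autophagy, Tbc1d13 included, 5 had a positive and 5 a negative difference at 23 against 3 months, and none was called there. Tbc1d9b had the smallest p of those with a positive difference. Its signal was 364.1 at the lowest, 532.2 in the median and 660.0 at the highest at 3 months, and 536.2, 614.2 and 717.3 at 23 months. The groups overlapped, with 13 of 13 old rats above the 3-month mean. The log2 difference was 0.21 ± 0.069 (SE; limma, adjusted p = 0.072), and it passed without 3 months replicates 1 or 4 or 23 months replicate 13, each alone (adjusted p down to 0.025). Tbc1d22al differed by 0.15 ± 0.052 (SE; limma, adjusted p = 0.12). Tbc1d10a and Tbc1d10b, GTPase-activating proteins of membrane and secretory Rabs, differed by -0.05 and 0.03. Among the remaining Rabs, Rab23 and Rab28, both of the cilium, differed by 0.06 and -0.07, and Rab5if by -0.10 (limma, adjusted p = 0.43).

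**Figure D3:**
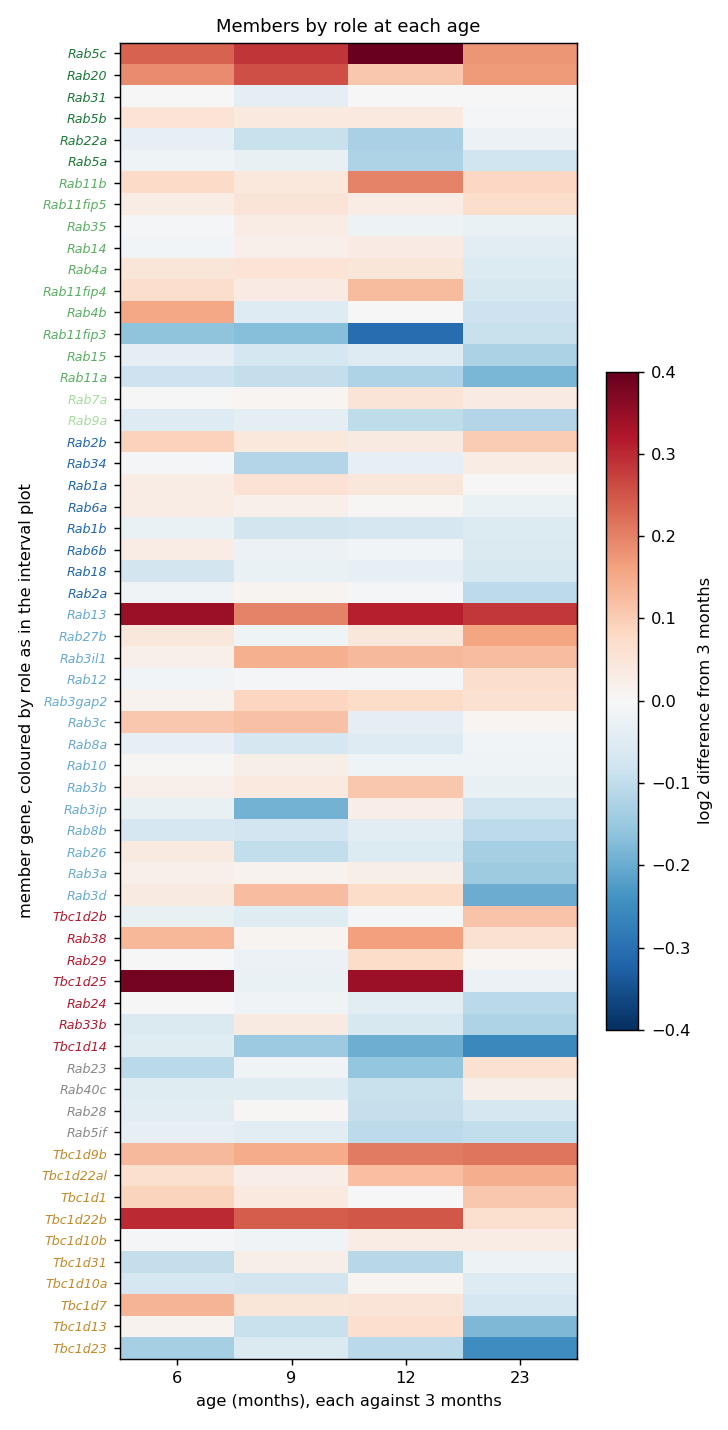
Log2 difference of each tested member from 3 months (colour, clipped at 0.4 in size) at 6, 9, 12 and 23 months (columns), with members in rows ordered and coloured by role. Tbc1d14 deepens with age, Rab3a and Rab2a are pale up to 12 months and blue at 23 months, and Rab5c and Rab13 are red at every age without having been called.

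Closely related members were also compared within each array, which removes whatever scales a whole array. Of 13 pairs with both genes tested, the log2 ratio of 2 pairs changed between 3 and 23 months after Benjamini-Hochberg adjustment over the 13 pairs. The log2 ratio of Rab11a to Rab11b went from -1.003 ± 0.17 (SD, n = 9) to -1.27 ± 0.21 (SD, n = 13), a change of -0.27 ± 0.081 (SE; exact two-sided permutation test, p = 0.00508, adjusted p = 0.043), with 11 of 13 old rats below the 3-month mean. The log2 ratio of Rab2a to Rab2b went from 1.67 ± 0.26 to 1.47 ± 0.13, a change of -0.20 ± 0.093 (SE; exact two-sided permutation test, p = 0.0066, adjusted p = 0.043), with 13 of 13 old rats below the 3-month mean. The exact test takes the spread to be alike at both ages. The SD of the Rab2a to Rab2b ratio was larger in the smaller, 3-month group, so that its p-value can be too small. These ratios share their data with the Rab11a and Rab2a results above and are not separate evidence. Ratios of probe signals show that members changed unequally and not which of them changed.

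Both ratios depended on the probe sets or animals used. For Rab11a over Rab11b the other 3 combinations of probe sets gave changes of -0.08, -0.18 and 0.00 (exact p = 0.32, 0.13 and 0.97). The second probe set of Rab2b gave -0.11 (exact p = 0.041), and without 3 months replicate 2, whose Rab2b signal was 696.9 against 1077.2 or more on the other 3-month arrays, the change was -0.12 (exact p = 0.026). Without the 5 choroid plexus arrays the changes were -0.27 and -0.25, and 0 of 13 pairs passed (exact test, adjusted p = 0.054 and 0.091). Of the pairs that did not pass, Rab5a over Rab5c had the largest change, -0.26 ± 0.16 (SE; exact p = 0.15). With the dimmer probe set of Rab5a that change was -0.35 (exact p = 0.024, not adjusted over pairs). Rab3a over Rab3b changed by -0.12 ± 0.069 (SE; exact p = 0.14), and Rab8a over Rab8b by 0.09 ± 0.065 (SE; exact p = 0.16).

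**Figure D4:**
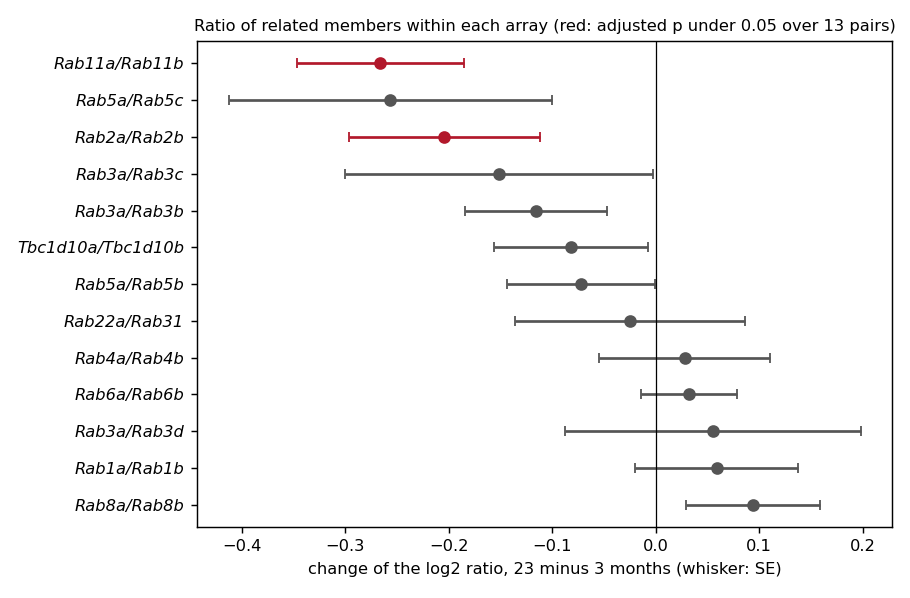
Change between 3 and 23 months of the within-array log2 ratio of related members (horizontal axis), one row per pair. Points are differences of group means (9 and 13 arrays), whiskers are SEs, and the pairs in red, Rab11a/Rab11b and Rab2a/Rab2b, had an adjusted p of 0.043 over 13 pairs.

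More than 1 probe set was present for 14 members, and their probe sets did not always show the same value. For Rab11b the brighter set gave 0.08 and the dimmer -0.10 ± 0.047 (SE) at 23 against 3 months. For Rab12, a Rab of receptor degradation, the brighter set gave 0.07 and the dimmer -0.36 ± 0.12 (SE; limma over every probe set, adjusted p = 0.082). The dimmer sets of Rab5a, Rab6a and Rab7a gave -0.17, -0.17 and -0.13, where the brighter sets gave -0.08, -0.03 and 0.03. Some dimmer sets differed in the other direction. Those of Rab15 and Rab31 gave 0.09 and 0.04, where the brighter sets gave -0.13 and 0.00. A dimmer set of Rab14 gave 0.12, where the brightest gave -0.04. None of these passed over every probe set at 23 against 3 months. Along the line in age the dimmer set of Rab6a fell by 0.10 per 10 months (SE 0.029, limma over every probe set, adjusted p = 0.031), while the brighter set was not called. The log2 ratio of 3′ to 5′ control signal differed between the oldest and youngest rats, oldest minus youngest, by 0.049 for Gapdh (exact two-sided permutation test, p = 0.14) and by 0.110 for actin (p = 0.086, exact test), with an adjusted p of 0.14 for both. Its part in these probe set differences was not tested. Sequences of related members can also share probes, and the 2 probe sets annotated to both Rab1a and Rab1b were given to neither.

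Proteins that work with Rabs were listed apart from the family. Of 72 genes listed as Rab machinery (exchange factors, prenylation and escort proteins, tethers and effectors), 49 were tested, and 1 rose and 0 fell at 23 against 3 months, with a median log2 difference of -0.01. The gene that rose was Rin2, an exchange factor for Rab5, by 0.19 ± 0.057 (SE; limma, adjusted p = 0.049), a call at the threshold. Of 42 genes of the autophagy core 31 were tested, 0 rose and 1 fell, with a median of 0.01. The gene that fell was Vmp1, a membrane protein of the endoplasmic reticulum needed to form autophagosomes, by 0.37 on the log2 scale (SE 0.088, limma, adjusted p = 0.0063). Neither Rin2 nor Vmp1 was followed under other settings or with arrays left out. The background was 2.41% of genes higher and 0.853% lower.

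RefSeq start sites in rat assembly GRCr8 were matched to 55 of the 65 members, among them 4 of the 6 that fell along the line in age. The 250 bases upstream of these 4 are shown since these members moved in the same direction. They lie at chr14:78397105-78397354 on the plus strand (Tbc1d14), chr8:74141685-74141934 on the minus strand (Rab11a), chr16:18722274-18722523 on the minus strand (Rab3a) and chr3:33806522-33806771 on the plus strand (Tbc1d13). Each runs 5′ to 3′ towards the start, and capitals mark GGGCGG (the GC box) and CACGTG (the E-box read by lysosomal and autophagy regulators of the MiT family, among others) on either strand, so CCGCCC is the GC box on the other strand.
Tbc1d14: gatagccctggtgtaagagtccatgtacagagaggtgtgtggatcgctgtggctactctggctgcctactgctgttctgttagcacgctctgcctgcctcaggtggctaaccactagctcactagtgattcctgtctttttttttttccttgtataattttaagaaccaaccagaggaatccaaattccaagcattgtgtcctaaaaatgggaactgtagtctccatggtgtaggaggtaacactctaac
Rab11a: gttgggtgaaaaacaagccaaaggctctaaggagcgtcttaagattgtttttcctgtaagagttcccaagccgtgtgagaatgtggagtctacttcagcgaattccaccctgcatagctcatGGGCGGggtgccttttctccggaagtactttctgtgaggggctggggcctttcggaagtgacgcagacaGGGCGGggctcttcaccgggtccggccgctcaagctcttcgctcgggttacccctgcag
Rab3a: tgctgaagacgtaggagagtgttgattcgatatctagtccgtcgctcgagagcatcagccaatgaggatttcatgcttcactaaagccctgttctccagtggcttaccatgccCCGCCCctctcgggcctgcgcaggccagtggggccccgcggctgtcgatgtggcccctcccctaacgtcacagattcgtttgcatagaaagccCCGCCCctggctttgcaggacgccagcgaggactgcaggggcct
Tbc1d13: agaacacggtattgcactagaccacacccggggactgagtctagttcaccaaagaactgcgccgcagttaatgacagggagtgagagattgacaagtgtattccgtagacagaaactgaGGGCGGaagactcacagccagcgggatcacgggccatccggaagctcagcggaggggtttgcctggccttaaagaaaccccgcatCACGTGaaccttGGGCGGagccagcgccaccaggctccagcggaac
The windows of Rab11a, Rab3a and Tbc1d13 each held GGGCGG, and that of Tbc1d13 also held CACGTG. That of Tbc1d14 held neither. GGGCGG occurred in 80.0% of the 55 members' windows, 61.8% of those of 6775 tested genes and 32.4% of all 27457 windows of that length in the table. The median share of G and C was 63.2% in the members' windows and 60.8% in those of tested genes. Its part in the motif shares was not tested. CACGTG occurred in 7.27% of members and 8.68% of tested genes. These motifs do not overlap each other in letters, and a match is a description of the sequence and not a site.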

How the data were processed

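The members and lists were chosen with earlier results of these data known. The deposited table holds linear array intensities. The authors made them with MAS5, per the submitters' processing notes, with a scaling target of 500, per the series' design text. The MAS5 version is not given in the sources used here. Signals under 16 were set to 16 (0.047% of tested values) and log2 was taken with no further scaling. Of 15923 probe sets, 57 were controls, 12783 had 1 gene symbol, 312 several and 2822 none listed. All 1176 pairs of arrays differed (SD of log2 differences 0.38 or more), and 0 per-sample columns were left unused.

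The fits used limma 3.58.1 under R 4.3.3 (lmFit, then eBayes allowing a variance trend) on all 49 arrays with a mean per age, or with age in months for the slope, adjusted over 8093 genes. The steps were tested on simulated data. Ratios of related members were compared with exact two-sided permutation tests written in Python 3.11.15 with numpy 2.4.6. Members were named by rule: those called in any comparison, the 3 of smallest p at 23 against 3 months in each role, the brightest 3, 13 set in advance where tested, and every tested pair; genes outside the family only where called. Alternatives covered the floor, the filter, normalization, probe sets, a block by replicate number, array weights, the variance model, fits of some ages, plain tests and arrays left out. Presence calls, scan dates and behaviour scores are not used here.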

Additional observations from a re-analysis of the deposited data

Results flagged for a closer look

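In 156 groups of 9 rats (each named member at 3, 6, 9 and 12 months) the highest or lowest animal was compared with the others by Dixon's criterion, under which chance alone would mark about 1 in 20 groups, or 7.8. It marked 14. At 3 months Rab2b was 696.9 on replicate 2, where the other arrays ran from 1077.2 to 1240.0, and the Rab2a over Rab2b ratio rests in part on that array.

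At 12 months Rab2b at 912.7 (others 1085.0 to 1194.0), Rab3b at 808.2 (others 509.6 to 631.1) and Rab8a at 378.2 (others 570.0 to 705.3) came from replicate 3, which had the 4th largest spread of deviations over all genes (SD 0.258 on the log2 scale). Rab24 at 1012.6, Rab7a at 2729.9 and Tbc1d10a at 170.8 came from 6 months replicate 3, the array of largest spread (SD 0.292). The part of that spread in these values was not tested.

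The other arrays each gave single values. At 9 months Rab8a was 437.4 on replicate 3 and Rab6a 7505.6 on replicate 1. At 6 months Rab6b was 5120.0 on replicate 6. At 12 months Rab20 was 52.6 on replicate 9, Rab3c 175.6 on replicate 7, Tbc1d10a 265.8 on replicate 1 and Tbc1d14 603.7 on replicate 5. Without that last array the slope of Tbc1d14 was still called.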

How the results depend on the processing

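The called members rest on small differences, and the number of animals at each age limits which are resolved. At 23 against 3 months, where 2 members were called, 1 remained (Tbc1d14) with no filter on signal, quantile normalization, every probe set, no variance trend, the replicate block, without the 5 choroid plexus arrays, in a fit of 3 and 23 months alone and by the plain two-sample test; leaving out each array gave 1 to 3. Along the line in age, where 6 were called, 2 passed with the replicate block (Tbc1d14 and Tbc1d22al), 2 without the 5 arrays (Rab3a and Tbc1d14) and 1 from 3 to 12 months (Tbc1d14), and leaving out each array gave 3 to 6. By the F-test, where 1 was called, 2 passed with array weights, 11 by plain analysis of variance with no adjustment (where 9.35% of all genes passed), and 1 to 3 on leaving out each array. At 12 against 3 months 1 passed with no filter (Tbc1d14), and 0 to 1 on leaving out each array. At 23 against 12 months 0 passed with no filter, every probe set, array weights, the replicate block or without the 5 arrays, and 0 to 1 on leaving out each array. At 9 and 6 against 3 months every alternative gave 0. Causes were not tested, beyond more features being adjusted over with no filter and with every probe set.

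The labels do not say that replicate numbers pair the animals. Deviations of arrays of the same number correlated by 0.065 on average (-0.131 to 0.361 over 86 pairs) and those of different numbers by -0.0063, and 11 of 40 arrays correlated best with their own number, a hint from the data that the design does not state. With the numbers as a block the slopes of Rab3a, Rab2a, Rab11a, Tbc1d13 and Rab26 had adjusted p-values of 0.12, 0.11, 0.055, 0.12 and 0.13 in limma. Of 2 related pairs that passed, 0 passed without the 5 arrays, and the Rab11a over Rab11b change was 0.0041 with the dimmer probe set of each, a reversed sign. At 23 against 3 months 503 values of named members were compared under the alternatives. Of the fits with 1 array left out, only the lowest and highest difference of each member entered this count. Within it 7 values of Rab11a lost the call and 3 gained one (Tbc1d13, Rab13 and Tbc1d9b). The other counted values stayed on their side of the threshold, and 31 of these, in 11 members, changed sign while called under neither setting. Over every omission of 1 array, Rab11a lost the call in 17 of 22. Rab3a gained it without 23 months replicate 9 (limma, adjusted p = 0.046). Medians of the endosomal, secretory and autophagy members moved by less than the SD of those medians between single 23-month animals. That limit is of rat-to-rat spread and not of the error of the medians, and a change of sign did not count as a move.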

Other observations

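Some members were higher at the middle ages than at 3 months, without passing the test. Rab5c, an early endosome Rab, had means of 765 ± 144 at 3 months, 898 ± 145 at 6, 925 ± 129 at 9, 997 ± 130 at 12 and 885 ± 238 at 23 months. At 12 months 9 of 9 rats were above the 3-month mean, with a log2 difference of 0.39 ± 0.14 (SE; limma, adjusted p = 0.33). Rab13 differed by 0.35 ± 0.11 at 6 months (SE; limma, adjusted p = 1.00) and by 0.31 ± 0.11 at 12 months (SE; limma, adjusted p = 0.34), with 9 of 9 rats at 12 months above the 3-month mean. Rab11b differed by 0.20 ± 0.069 at 12 months (SE; limma, adjusted p = 0.33). These comparisons share the 3-month animals, whose level enters each of them.

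The other members named here were picked after their values were seen. Tbc1d22b differed from 3 months by 0.30, 0.24 and 0.25 at 6, 9 and 12 months and by 0.06 at 23 months. Tbc1d25, a GTPase-activating protein for Rab33b, differed by 0.38 at 6 months and by -0.02 at 23 months, at signals near the filter limit of 100. Tbc1d23, a tether between endosomes and the trans-Golgi, differed by -0.25 ± 0.089 at 23 months (SE; limma, adjusted p = 0.12). Of Tbc1d22b, Tbc1d25 and Tbc1d23 none was called at any age.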
